A study of Mus musculus with 6 samples.

Results

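The 9 genes described here encode matrix enzymes of the citric acid cycle other than succinate dehydrogenase: Cs, Idh3a, Idh3b, Ogdh, Dlst, Suclg1, Sucla2, Fh1 and Mdh2. They were chosen by gene name from the 56534 genes or loci of the deposited expression table, each name matched 1 row, and all 9 passed the filter for testing (11104 genes passed). The table holds liver RNA of C57BL/6 mice fed a diet with 60% of its energy from fat for 16 weeks. The LKO group (n = 3 libraries) is labelled CD36-/-, and the series describes it as a hepatocyte-specific knockout of CD36, a receptor that takes up long-chain fatty acids. The CON group (n = 3 libraries) is labelled wild type. Neither age, sex nor the Cre driver of the hepatocyte deletion is stated in the labels. Whether each library stands for its own animal is also unstated, and the p-values therefore cover library-to-library spread only, which may include technical variation.

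The citric acid cycle oxidises acetyl-CoA in the mitochondrial matrix and hands its electrons to the respiratory chain. In liver much of that acetyl-CoA comes from the oxidation of fatty acids, and the cycle also supplies citrate for fatty acid synthesis and oxaloacetate for glucose synthesis. Citrate synthase (Cs) joins acetyl-CoA to oxaloacetate. NAD-dependent isocitrate dehydrogenase (catalytic subunit Idh3a, with Idh3b) and the oxoglutarate dehydrogenase complex (E1 component Ogdh, E2 component Dlst) carry out the oxidative decarboxylations. Succinate-CoA ligase (alpha subunit Suclg1, ADP-forming beta subunit Sucla2) makes a nucleoside triphosphate. Fumarate hydratase (Fh1) and malate dehydrogenase (Mdh2) return the carbon to oxaloacetate.

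Values are FPKM, fragment counts scaled to gene length and to the mapped fragments of the library. Levels of different genes can be set side by side only roughly, given the trends with gene length described below. Cd36 was listed at 2.73, 3.70 and 10.22 FPKM in LKO libraries 1 to 3, against 61.95, 26.49 and 19.66 FPKM in CON libraries 1 to 3. The groups did not overlap, and LKO 3 lay closest to the CON libraries (exact two-sided permutation test, p = 0.1, the smallest that 3 against 3 libraries allow). The log2 fold change of Cd36 was -2.50 (SE 0.51, limma, adjusted p = 0.163). It was -2.18 without LKO 1, -2.35 without LKO 2 and -2.98 without LKO 3 (limma, adjusted p = 0.440, 0.432 and 0.0165). The last fit leaves out the LKO library with the highest Cd36, so its lower p follows in part from that choice. LKO 3 also stood apart from LKO 1 and LKO 2 in a trend with gene length, in which it lay within the CON range. Across the 11104 genes, deviations from the gene mean correlated with length at a Spearman rho of -0.327, -0.300 and 0.208 in LKO libraries 1 to 3, and of 0.0984 to 0.287 in the CON libraries. LKO 2 had the largest share of mitochondrially encoded RNA, 10.15% of its summed FPKM, against 4.14% to 5.27% in the other LKO libraries and 3.88% to 6.18% in the CON libraries. The summed FPKM ranged from 959442 to 1271880 in LKO and from 831928 to 976871 in CON, and the depth in reads is unknown. Results are therefore given also without LKO 3 and after median-ratio scaling, which sets the typical gene of every library to the same level. All 10 hepatocyte markers were detected, with a summed level of 92850 to 105000 FPKM in LKO and 88780 to 114300 FPKM in CON. Of these markers 7 had negative and 3 positive log2 fold changes, with 0 past the threshold used below. The share of major urinary protein genes in a library's FPKM total was 23.9% to 29.4% in LKO and 6.22% to 22.1% in CON, without overlap, and the part of this share in the results below was not tested.

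None of the 9 cycle genes passed the threshold, an adjusted p under 0.05 over all genes (limma). Over all genes 0.00901% passed lower and 0% higher, which is 1 gene and 0 genes. At an unadjusted p under 0.05, 2 of the 9 were lower, Sucla2 and Idh3b, beside 18.9% of all genes, and 0 were higher, beside 3.25%. A total of 7 had a negative log2 fold change, beside 71.6% of all genes. Their median log2 fold change was -0.37, beside -0.23 for all genes. After median-ratio scaling the median of the 9 was -0.07 beside 0.01 for all genes, and 5 of the 9 were negative beside 48.9% of all genes. The share of negative values among the cycle genes was thus near that of all genes on either scale. In bulk tissue, fewer cells of a type and less RNA per cell cannot be told apart.

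The number of the 9 genes below their CON mean was 5, 8 and 8 in LKO libraries 1 to 3, and 1, 8 and 3 in CON libraries 1 to 3. Fh1 and Sucla2 lay at opposite ends of the set, with log2 fold changes of 0.63 and -0.81. A higher log2 fold change than that of Fh1 was found for 4.04% of the tested genes, and a lower one than that of Sucla2 for 6.99%. Measured against the CON mean on the log2(FPKM + 1) scale, the median deviation of the 9 was -0.20, -0.68 and -0.20 in LKO libraries 1 to 3. The same median over all tested genes was -0.21, -0.39 and -0.11 in those libraries. By this median, LKO 2 was the library in which the cycle genes were furthest below CON, also relative to all genes. The summed FPKM of the 9 genes was 774.4, 613.4 and 664.2 in LKO 1, LKO 2 and LKO 3 and 764.9, 692.3 and 727.0 in CON 1, CON 2 and CON 3, and the groups overlapped. The median of the 9 lay 3.10 ± 0.14 above the median of all tested genes in LKO and 3.21 ± 0.06 above it in CON on the log2(FPKM + 1) scale (SD, n = 3 each).

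**Figure D1:**
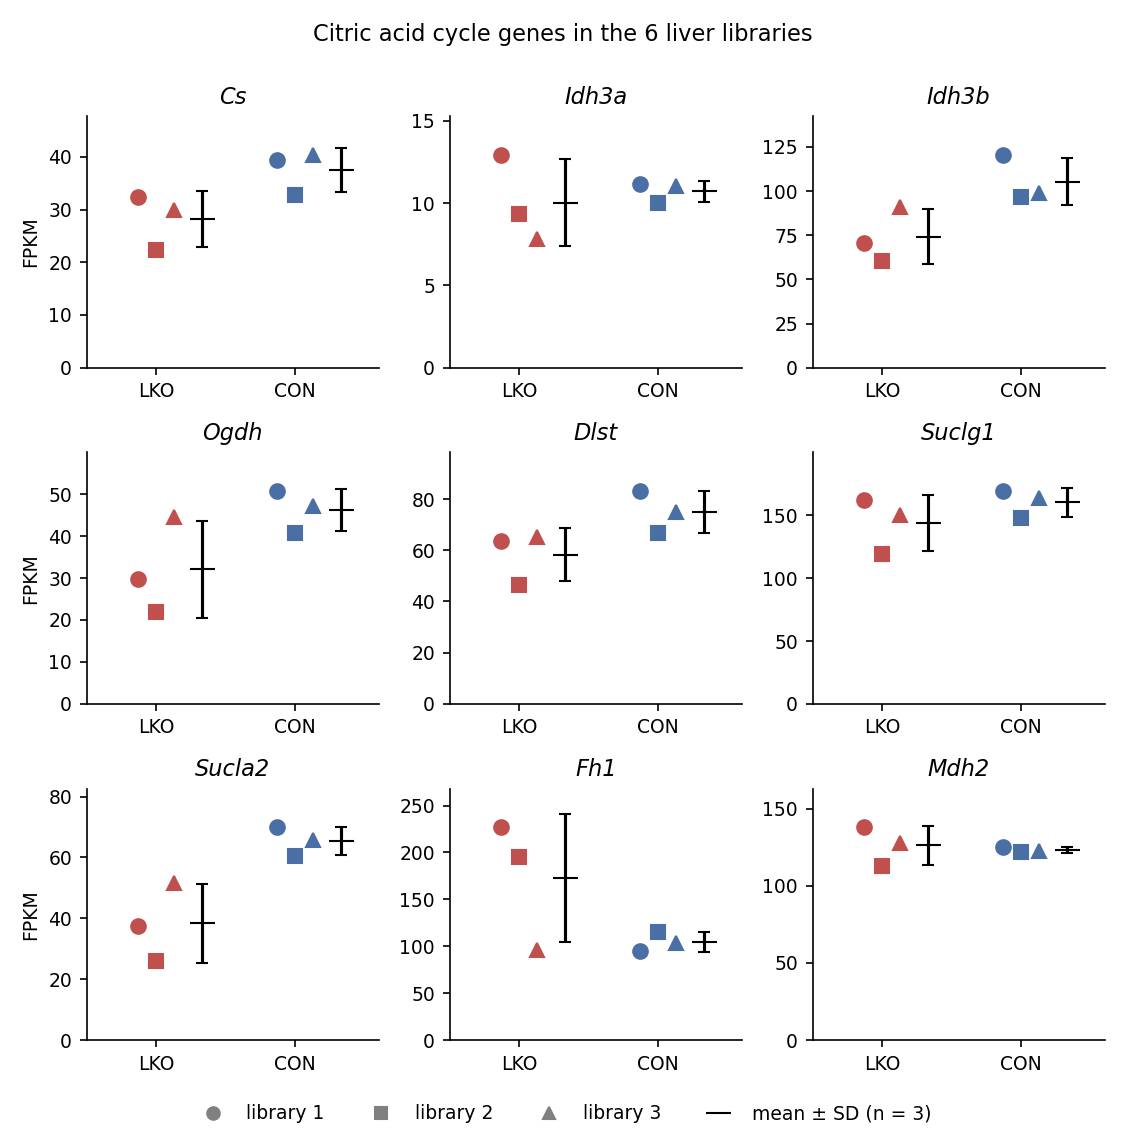
FPKM of the 9 cycle genes in each library, with LKO left of CON in every panel, a symbol for each library number and the mean ± SD of 3 libraries beside the points; each vertical axis starts at 0. Sucla2 was below all CON libraries in every LKO library, and Fh1 was at 227.04 and 195.22 FPKM in LKO 1 and LKO 2 but at 96.47 FPKM in LKO 3, inside the CON range.

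Cs (ENSMUSG00000005683), the enzyme of the entry step and a common marker of mitochondrial content, was at 32.41, 22.34 and 29.99 FPKM in LKO libraries 1 to 3, against 39.43, 32.82 and 40.43 FPKM in CON libraries 1 to 3. No LKO value reached the CON range, although LKO 1 came close to CON 2. The mean was 28.3 ± 5.26 FPKM in LKO and 37.6 ± 4.14 FPKM in CON (SD, n = 3 each), and the log2 fold change was -0.41 (SE 0.20, limma, adjusted p = 0.252). After median-ratio scaling it was -0.12 and the groups overlapped. The groups of 4 of the 9 genes did not overlap in the lower direction as deposited (Cs, Idh3b, Dlst and Sucla2), beside 24.3% of all genes, and those of 0 in the higher direction, beside 3.92%. After median-ratio scaling the tally was 1 lower (Sucla2), beside 11.1% of all genes, and 2 higher (Suclg1 and Mdh2), beside 12.3%.

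Idh3a (ENSMUSG00000032279), the catalytic alpha subunit of isocitrate dehydrogenase, was at 12.95, 9.34 and 7.83 FPKM in LKO libraries 1 to 3, against 11.16, 9.99 and 11.03 FPKM in CON libraries 1 to 3. The LKO values spread on both sides of the CON values. Its log2 fold change was -0.11 (SE 0.21, limma, adjusted p = 0.748), 0.04 without LKO 3 and 0.16 after median-ratio scaling, so its direction depended on the library and on the scale. Idh3b (ENSMUSG00000027406), the beta subunit, was at 70.85, 60.31 and 90.95 FPKM in LKO libraries 1 to 3, against 120.64, 96.37 and 98.77 FPKM in CON libraries 1 to 3. Here every LKO library was below every CON library. The log2 fold change was -0.51 (SE 0.21, limma, adjusted p = 0.212), and -0.22 after median-ratio scaling, where the groups overlapped. Idh3g, the third subunit gene of the enzyme, averaged 36.6 ± 5.16 FPKM in LKO and 41.3 ± 4.64 FPKM in CON (SD, n = 3 each), with the log2 fold change at -0.18 (limma, adjusted p = 0.552).

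Ogdh (ENSMUSG00000020456), the thiamine-dependent E1 component that binds 2-oxoglutarate, was at 29.79, 21.88 and 44.52 FPKM in LKO libraries 1 to 3, against 50.78, 40.81 and 47.07 FPKM in CON libraries 1 to 3. LKO 1 and LKO 2 were below all CON libraries, and LKO 3 lay between CON 2 and CON 3. The log2 fold change was -0.57 (SE 0.26, limma, adjusted p = 0.242), and -0.33 without LKO 2. Dlst (ENSMUSG00000004789), the E2 component that carries the lipoyl arm, was at 63.66, 46.33 and 65.01 FPKM in LKO libraries 1 to 3, against 83.22, 66.88 and 74.77 FPKM in CON libraries 1 to 3. Its groups did not overlap, with LKO 3 just under CON 2. The log2 fold change was -0.37 (SE 0.20, limma, adjusted p = 0.286), and -0.07 after median-ratio scaling, where the groups overlapped. Dld, the E3 component that this complex shares with pyruvate dehydrogenase, was at 20.98, 15.90 and 31.63 FPKM in LKO and 42.13, 33.75 and 36.83 FPKM in CON, with no overlap (log2 fold change -0.74, limma, adjusted p = 0.190). After median-ratio scaling Dld was at -0.45 and its groups still did not overlap.

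The subunits of succinate-CoA ligase had unlike values. Suclg1 (ENSMUSG00000052738), the alpha subunit of both forms of the enzyme, was at 162.13, 119.42 and 149.98 FPKM in LKO libraries 1 to 3, against 169.44, 147.72 and 163.63 FPKM in CON libraries 1 to 3. The groups overlapped, and the log2 fold change was -0.16 (SE 0.18, limma, adjusted p = 0.582). Sucla2 (ENSMUSG00000022110), the ADP-forming beta subunit, was at 37.54, 25.87 and 51.53 FPKM in LKO libraries 1 to 3, against 69.97, 60.55 and 65.75 FPKM in CON libraries 1 to 3. The LKO libraries were all lower, LKO 2 the most and LKO 3 the least. The mean was 38.3 ± 12.9 FPKM in LKO and 65.4 ± 4.72 FPKM in CON (SD, n = 3 each), and the log2 fold change was -0.81 (SE 0.25, limma, adjusted p = 0.183). After median-ratio scaling Sucla2 was at -0.51 and its groups still did not overlap in the lower direction (11.1% of all genes on that scale), while Suclg1 was at 0.13 with no overlap in the higher direction (12.3% of all genes). Suclg2, the GDP-forming beta subunit and not 1 of the 9, was at 47.52, 44.77 and 61.68 FPKM in LKO and 103.74, 88.28 and 70.30 FPKM in CON, also with no overlap (log2 fold change -0.75, limma, adjusted p = 0.179; -0.46 after median-ratio scaling). The genes of both beta subunits thus had values further below CON than the gene of the alpha subunit they share.

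The 250 bases upstream of the RefSeq start (GRCm38.p6) are shown for the alpha and the ADP-forming beta subunit, the subunits of 1 enzyme among the 9 genes whose fold changes lay furthest apart. Sucla2 is at chr14:73552536-73552785, plus strand, and Suclg1 at chr6:73248255-73248504, plus strand. Capitals mark matches on either strand to 6 motifs that did not overlap in these windows: CTTCCGG (GABPA), the NRF1 motif, TNAAGGTCA (ESRRA), GGGCGG (SP1), CCAAT (NFY) and TGACGTCA (CREB).
Sucla2: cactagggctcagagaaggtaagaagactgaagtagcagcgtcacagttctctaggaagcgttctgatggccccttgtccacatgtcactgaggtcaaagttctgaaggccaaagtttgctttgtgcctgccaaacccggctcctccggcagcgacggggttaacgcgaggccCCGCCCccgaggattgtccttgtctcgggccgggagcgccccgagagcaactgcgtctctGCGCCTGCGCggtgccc
Suclg1: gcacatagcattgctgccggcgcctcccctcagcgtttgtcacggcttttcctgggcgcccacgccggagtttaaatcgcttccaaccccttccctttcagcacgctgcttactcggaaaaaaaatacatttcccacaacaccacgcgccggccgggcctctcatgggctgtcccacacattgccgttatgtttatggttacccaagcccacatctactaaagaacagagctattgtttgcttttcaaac
The Sucla2 window held 1 match to the NRF1 motif, which begins 17 bases before the start and is found in 3.74% of 32851 such windows, and 1 to the SP1 motif (32.7% of windows). The Suclg1 window held none of the 6. A match is a description of the letters only, and binding was not measured.

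Fh1 (ENSMUSG00000026526), the enzyme that hydrates fumarate to malate, differed among the LKO libraries more than any other of the 9. Its level was 227.04, 195.22 and 96.47 FPKM in LKO libraries 1 to 3, against 95.08, 115.52 and 103.37 FPKM in CON libraries 1 to 3. LKO 1 and LKO 2 were higher than all CON libraries, and LKO 3 was lower than CON 2 and CON 3. The mean was 172.9 ± 68.1 FPKM in LKO and 104.7 ± 10.3 FPKM in CON (SD, n = 3 each), and the log2 fold change was 0.63 (SE 0.32, limma, adjusted p = 0.263). Leaving out 1 LKO library gave 0.39 without LKO 1, 0.50 without LKO 2 and 1.01 without LKO 3 (limma, adjusted p = 0.543, 0.538 and 0.0179). With every library scaled to the same summed FPKM it was 0.33 (limma, adjusted p = 0.386). After median-ratio scaling it was 0.93 (SE 0.38, limma, adjusted p = 0.269), and the groups overlapped. The upstream window of Fh1 (chr1:175625636-175625885, GRCm38.p6, minus strand), shown because Fh1 had the highest fold change of the set, held 1 match to the SP1 motif and 2 to the NFY motif (33.8% of windows hold the NFY motif), again in capitals.
Fh1: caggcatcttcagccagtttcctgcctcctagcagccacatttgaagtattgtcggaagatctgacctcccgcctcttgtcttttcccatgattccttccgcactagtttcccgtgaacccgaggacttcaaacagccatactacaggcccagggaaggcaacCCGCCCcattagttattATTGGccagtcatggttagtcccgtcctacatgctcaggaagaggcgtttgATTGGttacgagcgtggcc
It held no match to the NRF1, GABPA, ESRRA or CREB letters. Of the 8 cycle genes with an entry in the promoter table, 1 had a match to NRF1, 6 to SP1, 4 to NFY, 2 to CREB and 0 to GABPA or ESRRA. The share of all windows with a match was 1.55% for CREB, 6.91% for GABPA and 1.14% for ESRRA. Ogdh had 6 entries, counted together, so the counts per gene and the shares per window are unlike measures.

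Mdh2 (ENSMUSG00000019179), which oxidises malate to oxaloacetate, was at 138.04, 112.70 and 127.90 FPKM in LKO libraries 1 to 3, against 125.21, 121.60 and 122.23 FPKM in CON libraries 1 to 3. The groups overlapped and the means lay close together, at 126.2 ± 12.8 FPKM in LKO and 123.0 ± 1.93 FPKM in CON (SD, n = 3 each). The log2 fold change was 0.03 (SE 0.16, limma, adjusted p = 0.915), and -0.03 without LKO 1. After median-ratio scaling it was 0.33 (SE 0.15, limma, adjusted p = 0.283), with every LKO library above every CON library. When every library was instead scaled to the same summed FPKM it was -0.28, so the direction of Mdh2 depended on the scale.

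**Figure D2:**
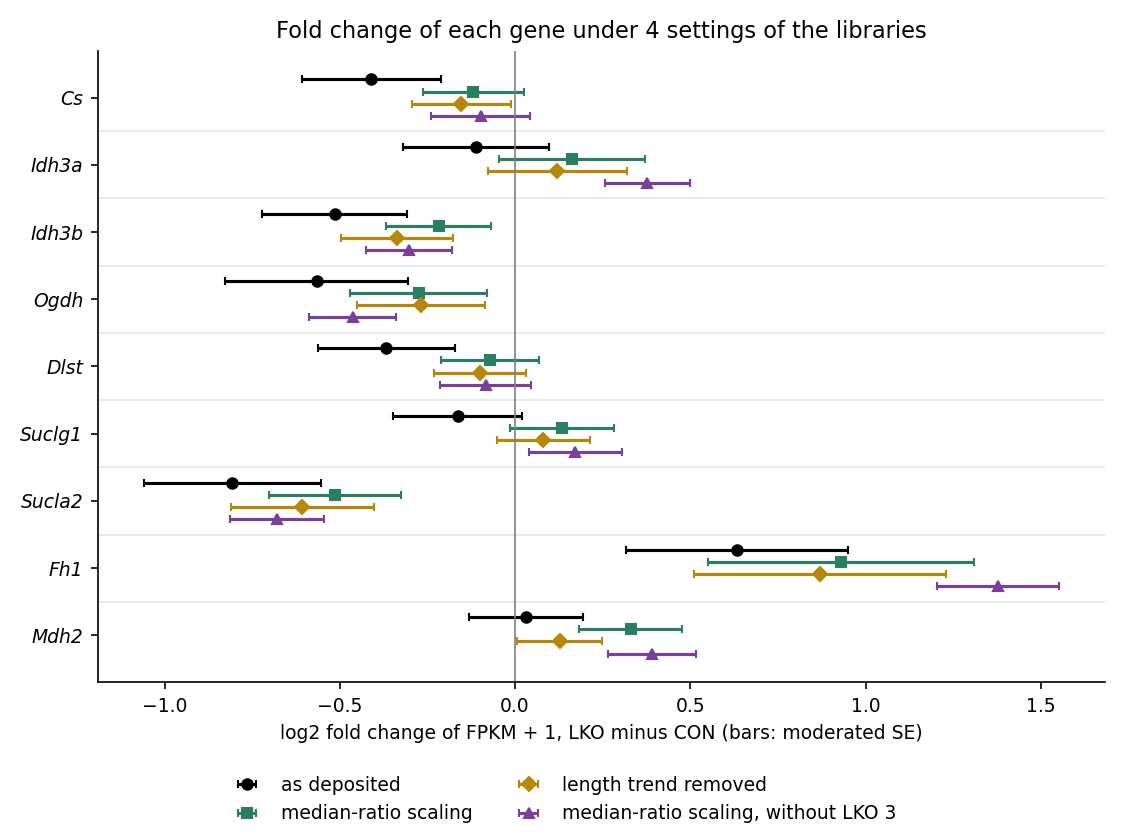
Log2 fold change (LKO minus CON, log2(FPKM + 1) scale, horizontal axis) of each cycle gene with its moderated standard error, as deposited, after median-ratio scaling, with the trend of each library with gene length removed, and after median-ratio scaling without LKO 3. Fh1 was positive and Sucla2, Ogdh, Idh3b, Cs and Dlst were negative under all 4 settings; Idh3a and Suclg1 changed sign.

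Without LKO 3, 4 of the 9 genes passed the threshold (limma): Fh1 was higher, and Sucla2, Ogdh and Idh3b were lower. Over all genes 19.0% then passed lower and 4.60% higher. The groups of 5 of the 9 then did not overlap in the lower direction, beside 46.6% of all genes, and those of 1 in the higher, beside 13.5%. The log2 fold changes were 1.01 for Fh1, -1.04 for Sucla2, -0.83 for Ogdh and -0.67 for Idh3b, with adjusted p-values of 0.0179, 0.0217, 0.0299 and 0.0372. In that fit the group coincides with the length trend of the libraries, so the fit was repeated with the trend removed. With LKO 3 left out and the length trend removed, Fh1 was at 1.30 and Sucla2 at -0.80 (limma, adjusted p = 0.0219 and 0.0335), and these 2 passed, beside 5.86% of genes lower and 6.07% higher. After median-ratio scaling without LKO 3 the same 2 passed, Fh1 at 1.38 and Sucla2 at -0.68 (limma, adjusted p = 0.0191 and 0.0300), beside 8.26% lower and 11.4% higher. Ogdh and Idh3b had adjusted p-values of 0.0769 and 0.0680 with LKO 3 left out and the length trend removed (limma). With the trend removed in all 6 libraries these were 0.447 and 0.322. The cycle genes are 1606 to 4127 bases long per the deposited lengths. Their median length is 2636 bases, beside 3010 bases for all tested genes. With the length trend removed in all 6 libraries, their median log2 fold change was -0.10, beside -0.01 for all genes. Fh1 is 2636 bases long and Sucla2 2229 bases. The fits that combine leaving out LKO 3 with a scaling or the length trend were added after its values were known. Array weights, which let limma weigh each library, also left Fh1 higher and Sucla2, Idh3b and Ogdh lower past the threshold, beside 37.6% of all genes lower and 15.2% higher, with LKO 3 weighted least. The estimation of these weights stopped before convergence, with nearly all weight on LKO 1 among the LKO libraries.

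The order of the mean levels was led in LKO by Fh1 at 172.9 FPKM, Suclg1 at 143.8 FPKM and Mdh2 at 126.2 FPKM. Their ranges overlapped one another, and all lay above Idh3b at 74.0 FPKM. In CON the order began with Suclg1 at 160.3 FPKM and Mdh2 at 123.0 FPKM, which did not overlap, followed by Idh3b at 105.3 FPKM and Fh1 at 104.7 FPKM, which did. Dlst, Sucla2, Ogdh, Cs and Idh3a followed in this order in either group. Of these neighbours, Dlst and Sucla2, Sucla2 and Ogdh, and Ogdh and Cs overlapped in LKO, while in CON only Dlst and Sucla2 did. Idh3a was the lowest of the 9 in either group, at 10.0 ± 2.63 FPKM in LKO and 10.7 ± 0.64 FPKM in CON (SD, n = 3 each), with no overlap with Cs.

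Ratios of paired genes within a library do not depend on how that library is scaled, and 4 such pairs were compared. They can still carry a trend of the library with gene length where the paired genes differ in length. The ratios were not recomputed with that trend removed. The ratio of Suclg1 to Sucla2 was 4.32, 4.62 and 2.91 in LKO 1, LKO 2 and LKO 3, against 2.42, 2.44 and 2.49 in CON 1, CON 2 and CON 3. Every LKO library was above every CON library, and the CON libraries lay close together. On the log2 scale the mean ratio was 1.95 ± 0.36 in LKO and 1.29 ± 0.02 in CON (SD, n = 3 each), a difference of 0.66. It ranged from 0.53 without LKO 2 to 0.87 without LKO 3. An exact two-sided permutation test gave p = 0.1, its floor for this number of libraries, and p = 0.2 after Benjamini-Hochberg adjustment over the 4 pairs.

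The ratio of Mdh2, which makes oxaloacetate, to Cs, which uses it, was 4.26, 5.04 and 4.26 in LKO 1, LKO 2 and LKO 3, against 3.18, 3.71 and 3.02 in CON 1, CON 2 and CON 3. Its groups did not overlap either, with a difference of 0.46 on the log2 scale (exact permutation test, p = 0.1, adjusted p = 0.2). Mdh2 is 1606 and Cs 3003 bases long. With the length trend removed their log2 fold changes were 0.13 and -0.15, against 0.03 and -0.41 as deposited. Those of Suclg1 (2767 bases) and Sucla2 (2229 bases) were 0.08 and -0.61, against -0.16 and -0.81. The part of the length trend in these ratios was not tested. The ratio of Idh3a to Idh3b was 0.183, 0.155 and 0.0861 in the LKO libraries and 0.0925, 0.104 and 0.112 in the CON libraries. The ratio of Ogdh to Dlst was 0.468, 0.472 and 0.685 in the LKO libraries and 0.610, 0.610 and 0.630 in the CON libraries. In these last 2 pairs LKO 1 and LKO 2 lay on one side of CON and LKO 3 on the other. Their differences on the log2 scale were 0.40 and -0.21 (exact permutation test, p = 0.4 each, adjusted p = 0.4), and 0.72 and -0.39 without LKO 3 (exact permutation test, p = 0.2 each, also the smallest p that these 5 libraries gave).

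**Figure D3:**
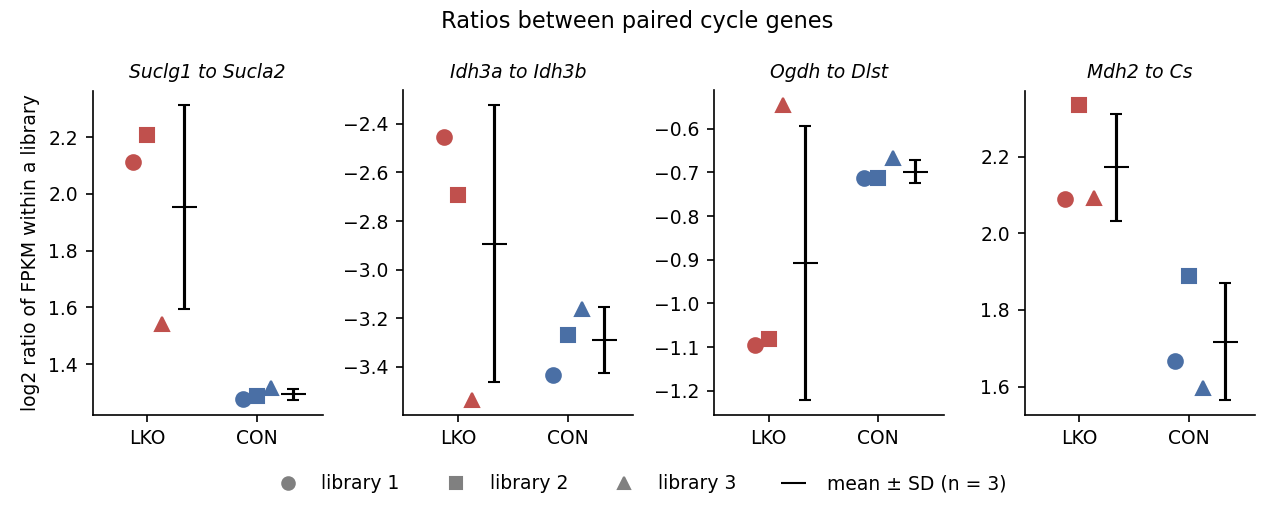
Log2 ratio of the FPKM of paired cycle genes within each library (vertical axis, not starting at 0), with LKO left of CON, a symbol for each library number and the mean ± SD of 3 libraries. The groups do not overlap for Suclg1 to Sucla2 and for Mdh2 to Cs; in the other pairs LKO 3 lies on the other side of CON from LKO 1 and LKO 2.

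The rest of the cycle was read from lists of related genes. None of their members passed over all genes (limma), and the percentages of all genes given above hold as their background. Of the 7 listed genes for the other matrix enzymes and subunits, 6 were tested, and all 6 had negative log2 fold changes, with a median of -0.67, and -0.37 after median-ratio scaling. The groups did not overlap in the lower direction for 4 of them, Suclg2, Dld and Idh2 included. Idh2, the NADP-dependent isocitrate dehydrogenase of the matrix, was at 32.8 ± 2.22 FPKM in LKO and 51.4 ± 14.1 FPKM in CON (SD, n = 3 each), at -0.60. After median-ratio scaling the groups of Suclg2 and Dld still did not overlap. Ogdhl, a paralog of Ogdh, was listed at 0.04 FPKM or less in every library and not tested.

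Succinate dehydrogenase, which is also complex II of the respiratory chain, was split among its subunits. The flavoprotein gene Sdha was at 75.74, 53.60 and 120.25 FPKM in LKO and 195.63, 130.70 and 127.46 FPKM in CON, with no overlap (log2 fold change -0.90, limma, adjusted p = 0.193). After median-ratio scaling Sdha was at -0.61 and its groups overlapped. The membrane anchor gene Sdhd was at -0.59, and at -0.29 after that scaling, without overlap on either scale. The iron-sulfur subunit gene Sdhb was at 193.17, 175.71 and 140.13 FPKM in LKO and 191.97, 152.02 and 152.14 FPKM in CON, a log2 fold change of 0.03, and the other anchor gene Sdhc was at -0.20, each with overlapping groups. With the assembly factors, 8 genes had a median of -0.20, and 0.09 after median-ratio scaling.

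Genes of pyruvate entry had a median of -0.59 over 11 tested members, of which 9 were negative. The groups of 5 did not overlap in the lower direction, beside 24.3% of all genes. Among those with the smallest p were the pyruvate dehydrogenase kinase genes Pdk1 (-0.97) and Pdk2 (-0.59) and the phosphatase regulator gene Pdpr (-1.18). Genes that feed or drain the cycle had a median of -0.43 over 11 members. Among them Pcx, whose enzyme carboxylates pyruvate to oxaloacetate, averaged 85.8 ± 25.4 FPKM in LKO and 170.2 ± 27.5 FPKM in CON (SD, n = 3 each), at -1.01. The glutamate dehydrogenase gene Glud1 was at -1.11 and the methylmalonyl-CoA mutase gene Mut at -0.95. After median-ratio scaling the medians of these lists were -0.30 and -0.13. In each list 1 gene, Pdk1 and Pcx, kept groups without overlap in the lower direction, beside 11.1% of all genes.

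The cytosolic counterparts of the cycle had the lowest median of the lists, -0.87 over 7 members, all negative, and -0.58 after median-ratio scaling. The groups of 4 of these genes did not overlap in the lower direction on either scale. The share of all genes was 24.3% as deposited and 11.1% after the scaling. The malic enzyme gene Me1 was at 13.35, 6.30 and 5.86 FPKM in LKO and 33.71, 21.58 and 20.07 FPKM in CON, a log2 fold change of -1.51. The citrate lyase gene Acly averaged 5.26 ± 2.67 FPKM in LKO and 15.1 ± 4.69 FPKM in CON (SD, n = 3 each), at -1.40. Mdh1, the cytosolic malate dehydrogenase, averaged 159.3 ± 53.1 FPKM in LKO and 286.5 ± 56.0 FPKM in CON (SD, n = 3 each), with the log2 fold change at -0.88 (limma, adjusted p = 0.185) beside 0.03 for its matrix partner Mdh2. The aconitase gene Aco1 was at -0.87. The other 3 members, Idh1, Gpt and Got1, lay between -0.32 and -0.13 with overlapping groups.

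Carriers of cycle intermediates had a median of -0.48 over 7 tested members. The groups of 5 did not overlap in the lower direction, beside 24.3% of all genes. Among these were the dicarboxylate carrier gene Slc25a10 (-1.06) and the aspartate-glutamate carrier genes Slc25a13 (-0.71) and Slc25a12 (-0.73). Genes of lipoylation and cofactor supply, on which the oxoglutarate and pyruvate dehydrogenase complexes depend, had a median of -0.54 over 9 members, all negative. For 7 of the 9 the groups did not overlap in the lower direction, beside the same 24.3%. Among those with the smallest p were Lipt1, a lipoyltransferase gene (-0.67), and the carrier gene Slc25a42 (-0.62). After median-ratio scaling the medians were -0.19 and -0.26. In these lists 3 and 4 genes then had no overlap in the lower direction, beside 11.1% of all genes. Regulators of mitochondrial gene expression had a median of 0.04 over 10 tested members. The groups of all 10 overlapped as deposited. After median-ratio scaling the median was 0.29. Of the 10, 3 then did not overlap in the higher direction, Pprc1 (0.58), Polrmt (0.40) and Polg (0.42), beside 12.3% of all genes. As deposited the lowest values were those of Tfam, a factor of mitochondrial DNA maintenance and transcription (-0.88), and Gabpa, an ETS factor (-0.80). The 12 detected mitochondrially encoded genes were all positive, with a median of 0.69. The groups of only 1 of them, mt-Co2, did not overlap in the higher direction, beside 3.92% of all genes. After median-ratio scaling this held for 3 of them, beside 12.3% of all genes. For the mitochondrially encoded genes, LKO 2 was the library with the largest share of summed FPKM. The median and the summed FPKM of the cycle genes were lowest in that same library, although Fh1 and Idh3a were not. The part of this share in the values of the cycle genes was not tested.

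**Figure D4:**
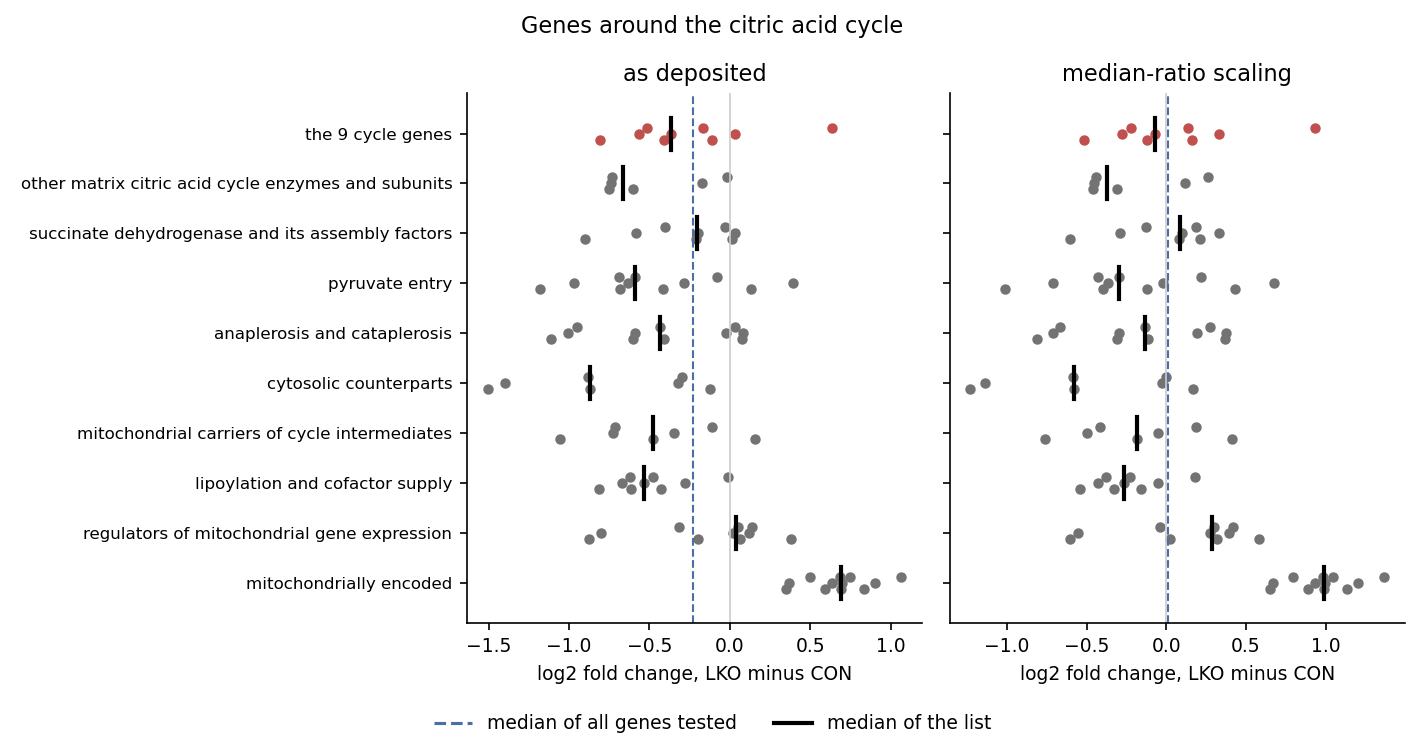
Log2 fold change (LKO minus CON, horizontal axis) of every tested gene of each list, as deposited (left) and after median-ratio scaling (right); points are genes, black bars list medians and the dashed line the median of all tested genes. The 9 cycle genes spread from -0.81 to 0.63 as deposited around a median of -0.37, and the cytosolic counterparts had the lowest list median on either scale.

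The summed levels of markers of other liver cell types overlapped between the groups. The 8 Kupffer cell markers, all detected, summed to 126.7 to 253.0 FPKM in LKO and 156.5 to 228.5 FPKM in CON. Of these, 5 had negative and 3 positive log2 fold changes, with Adgre1 lowest at -1.01. The 8 sinusoidal endothelial markers, all detected, summed to 53.4 to 76.5 FPKM in LKO and 39.2 to 116.1 FPKM in CON. The 8 stellate cell markers, all detected, summed to 164.1 to 290.2 FPKM in LKO and 164.5 to 177.1 FPKM in CON. The stellate sum was above every CON library in LKO 1 and LKO 2. In LKO 3 it was 164.1 FPKM, just under the lowest CON value of 164.5 FPKM. Its largest part was Ecm1, which averaged 126.7 FPKM in LKO and 79.4 FPKM in CON. Of the 8 stellate markers, 6 had positive and 2 negative log2 fold changes as deposited, and 7 were positive after median-ratio scaling. On that scale without LKO 3, 3 of the 8 passed higher (limma), beside 11.4% of all genes. Cholangiocyte markers, 3 of 6 at a mean of 1 FPKM or more, summed to 34.6 to 75.9 FPKM in LKO and 29.9 to 51.9 FPKM in CON. This sum mainly follows Spp1, which averaged 51.0 FPKM in LKO and 35.3 FPKM in CON. The 3 cholangiocyte markers tested all had positive log2 fold changes. Leukocyte markers, 6 of 8 at a mean of 1 FPKM or more, summed to 8.65 to 15.9 FPKM in LKO and 13.2 to 21.8 FPKM in CON. Of the 6 tested, 4 were negative and 2 positive. Erythroid markers, 5 of 5, summed to 145.4 to 334.6 FPKM in LKO and 92.1 to 609.6 FPKM in CON, with 3 negative and 2 positive. Adipocyte and muscle markers, 1 of 8, summed to 0.75 to 2.17 FPKM in LKO and 0.67 to 1.71 FPKM in CON, with Lep, Myh4 and Ckm listed at 0 in every library. The part of cell composition in the values of the cycle genes was not tested.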

How the data were processed

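The members and gene lists were chosen with earlier results of these data known. The authors deposited FPKM per gene and library, rounded to 2 decimals, and a gene length in bases. Per the submitters' processing notes the tools were HISAT2 and StringTie and the build mm9. Not given in the sources used here are versions, options, annotation and strandedness. The 11104 of 56534 genes whose mean FPKM was 1 or more were taken to log2(FPKM + 1) and tested with limma 3.58.1 in R 4.3.3 (eBayes with trend, group as the only term, two-sided, Benjamini-Hochberg over all genes tested). SE is the moderated standard error. Fold changes on this scale understate changes of low genes. Ratios and Cd36 were tested with exact permutation tests in SciPy 1.17.1. All 9 members and Cd36 are named, and up to 3 genes with the smallest unadjusted p of each other list, with all detected members of the other cycle enzymes and of succinate dehydrogenase open to naming. Mdh1, Idh1, Gpt, Got1, Pprc1, Polrmt and Polg fall outside this rule and were named after their values were seen. Some genes that the rule covers are not reported here. Promoter sequences are from RefSeq (GRCm38.p6), matched by symbol for 8 of the 9. No gene coordinates from the expression table were used. Other scalings, filters and pseudocounts, removal of a trend with gene length, array weights, a replicate block and leaving out each library were tried as alternatives. The limma step was tested on simulated data. The labels state no pairing of LKO and CON libraries that share a number, and the main fit left them unpaired. Their correlations are given in the closing section.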

Additional observations from a re-analysis of the deposited data

How the results depend on the processing

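A total of 18 other settings were tried, 2 of them chosen after seeing the data. The count of cycle genes past the threshold stayed at 0 in 14 of them. It was 4 with array weights, 2 after median-ratio scaling without LKO 3 and 2 with the length trend removed without LKO 3, and 0 to 4 over the fits that leave out 1 library, with 4 without LKO 3. The array weights stopped before convergence, and LKO 1 had a weight of 13.85 against 0.196 to 1.53 in the other libraries. Over all genes, where 1 passed, 0 passed with a pseudocount of 0.1, with no filter, with a filter at a mean FPKM of 5, with the length trend removed and with the replicate block. The count was 2 with the same summed FPKM and with the mitochondrial genes removed, 5864 with array weights, 2182 after median-ratio scaling without LKO 3 and 1325 with the length trend removed without LKO 3. Leaving out 1 library gave 0 to 2626, the highest without LKO 3. The median of the cycle genes, -0.37, was -0.0715 after median-ratio scaling, -0.084 with LKO 3 also left out, -0.67 with the same summed FPKM and -0.65 with the mitochondrial genes removed, where that of all genes was 0.01, 0.01, -0.48 and -0.46. For Cd36, -2.50 as deposited, the fold change passed at -2.86 with array weights, -2.65 after median-ratio scaling without LKO 3 and -2.63 with the length trend removed without LKO 3, and ranged from -2.0349 to -2.976 over the fits that leave out 1 library, where it passed without LKO 3.

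Directions turned for 3 cycle genes, none of which passed. Idh3a was at 0.16 after median-ratio scaling, 0.13 after quantile normalization, 0.12 with the length trend removed and 0.24 with array weights. It ranged from -0.294 to 0.0359 over the fits that leave out 1 library, positive without LKO 3, and was then at 0.38 after median-ratio scaling and 0.32 with the length trend removed. Suclg1 was at 0.13 after median-ratio scaling, 0.0804 with the length trend removed and 0.0221 with array weights, and at 0.17 and 0.10 in the first 2 of these without LKO 3. Mdh2 was at -0.28 with the same summed FPKM, -0.25 with the mitochondrial genes removed, and from -0.0346 to 0.1105 over the fits that leave out 1 library, negative without LKO 1. Cs, Idh3b, Ogdh, Dlst, Sucla2 and Fh1 kept their direction in all 18. The cause of these moves was not tested. Over the fits that leave out 1 library, Fh1 ranged from 0.39 without LKO 1 to 1.01 without LKO 3, Sucla2 from -0.56 without LKO 2 to -1.04 without LKO 3, and Ogdh from -0.33 without LKO 2 to -0.83 without LKO 3.

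The deviations of same-numbered LKO and CON libraries correlated at -0.046, 0.168 and 0.0701 for numbers 1, 2 and 3. Those of differently numbered libraries correlated at -0.156 to 0.0551. The labels state no pairing, and with 3 libraries per group these correlations cannot settle whether there was one. With the replicate block, Sucla2 had an adjusted p of 0.190 and Fh1 of 0.244, and 0 cycle genes passed. The depth in reads is unknown, and no counting interval can be given.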
